A study of Homo sapiens with 6 samples.

Results

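The matrix metalloproteinases (MMP), the tissue inhibitors of metalloproteinases (TIMP) and the ADAM and ADAMTS proteases were described in HepG2, a human liver cancer cell line, after treatment with TGFβ or vehicle. Members were all rows of the deposited gene table whose symbol is MMP, TIMP, ADAM or ADAMTS followed by a number alone. The rule used names and no measured value, and it gave 67 of 57773 genes, of which 22 were MMP, 4 TIMP, 22 ADAM and 19 ADAMTS genes. RNA was sequenced from 3 cultures that received recombinant human TGFβ1 at 5 ng/mL and from 3 that received vehicle, all for 3 h. The treatment medium is described in the methods as free of serum. Both groups were the same unmodified line, so the data cover 1 line, 1 dose and 1 time. The sequenced samples are called biological replicates in the methods. The labels number them 1 to 3 in each group without saying how the cultures were kept apart, so p-values measure the spread between these cultures.

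MMPs are zinc-dependent proteases, secreted or anchored in the cell membrane, that are made as inactive precursors and cut collagens, gelatin and other parts of the extracellular matrix. ADAMs are mostly membrane proteins, of which the catalytic members release the outer parts of growth factors, cytokines and receptors from the cell surface, whereas ADAMTS proteases are secreted, bind the matrix, and trim procollagens, proteoglycans and proteins of fibrillin microfibrils. TIMPs block the active site of MMPs and, in the case of TIMP3, of several ADAMs and ADAMTSs. In liver, stellate cells are known as the main source of scar matrix and TGFβ as a main signal that drives it.

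Promoters are shown first for the genes that passed the test below, ADAMTS6, ADAM19 and ADAMTS10, the last with both of its listed starts. Each is the 250 bases before a RefSeq transcription start on GRCh38.p14, written 5′ to 3′ on the gene's own strand, which is the minus strand in each case. Capitals mark the SMAD box, CAGAC or GTCTG on the other strand, which is the core of the sequence bound by SMAD3 and SMAD4, and in ADAMTS6 also the cAMP response element (CRE).
ADAMTS6, chr5:65481921-65482170: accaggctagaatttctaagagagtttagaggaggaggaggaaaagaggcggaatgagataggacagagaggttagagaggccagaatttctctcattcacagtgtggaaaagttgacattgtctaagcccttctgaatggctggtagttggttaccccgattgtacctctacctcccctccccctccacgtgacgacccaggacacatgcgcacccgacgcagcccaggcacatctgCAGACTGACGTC
ADAM19, chr5:157575776-157576025: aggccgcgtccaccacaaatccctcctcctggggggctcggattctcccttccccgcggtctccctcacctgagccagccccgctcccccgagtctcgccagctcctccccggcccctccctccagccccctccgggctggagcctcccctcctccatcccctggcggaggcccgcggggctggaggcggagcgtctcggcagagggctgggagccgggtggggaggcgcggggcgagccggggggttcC
ADAMTS10, downstream start, chr19:8592217-8592466: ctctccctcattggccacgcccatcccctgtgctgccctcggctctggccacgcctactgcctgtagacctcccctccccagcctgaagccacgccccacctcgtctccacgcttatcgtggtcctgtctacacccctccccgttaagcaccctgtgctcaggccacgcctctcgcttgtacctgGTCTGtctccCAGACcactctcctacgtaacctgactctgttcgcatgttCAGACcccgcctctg
ADAMTS10, upstream start, chr19:8610716-8610965: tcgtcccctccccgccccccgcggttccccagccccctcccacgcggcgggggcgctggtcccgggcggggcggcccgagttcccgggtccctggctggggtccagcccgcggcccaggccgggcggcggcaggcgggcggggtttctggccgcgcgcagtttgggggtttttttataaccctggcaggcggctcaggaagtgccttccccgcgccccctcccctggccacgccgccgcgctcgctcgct

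In ADAMTS6 the SMAD box began 12 bases before the start and was followed directly by a CRE, TGACGTCA, which began 7 bases before the start and whose last base lies past it. The downstream start of ADAMTS10 had SMAD boxes 65, 55 and 15 bases before it, while the upstream start had 0. In ADAM19 the box began 1 base before the start, so only its first letter is printed. Promoter windows of 250 bases before and 50 after the start were listed for 38 of the 67 member genes, in 39 entries. Members without an entry were not searched. The SMAD box, searched on both strands, was in 22 of these 39 (56.4%) against 45.3% of all 35116 listed promoters, and in 14 of the 22 entries of tested members. The CRE was in 1 of 39 (2.56%), that of ADAMTS6, against 1.85% of all. The AP-1 site, searched as TGANTCA with any base at N, was in 4 of 39 (10.3%), those of ADAMTS12, MMP10, MMP20 and MMP7, against 7.71% of all. These matches describe letters only, and most promoters with a SMAD box belonged to members that did not pass the test.

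At an adjusted p under 0.05 in edgeR's quasi-likelihood test, run without a block for the culture number, 3 members were higher with TGFβ and 0 were lower. They were ADAMTS6, ADAMTS10 and ADAM19. Enough reads to be tested were present for 36 members, that is 12 MMP, 4 TIMP, 9 ADAM and 11 ADAMTS genes, so the called members were 8.33% of those tested, against 3.11% called higher, 1.01% called lower and 4.12% called in either direction among all 22747 tested genes. At an unadjusted p under 0.05, 7 members were higher and 0 lower, against 8.69% and 4.97% of all tested genes, and DESeq2 and limma-voom also called 0 members lower. The median log2 fold change (TGFβ against vehicle) of the tested members was 0.09, against -0.01 for all genes. Cultures with the same number in both groups deviated together, and with the replicate number as a block 8 members were higher and 1 was lower, or 25% of the tested members against 11.8% of all genes (8.08% higher and 3.75% lower). Among the other 31 members, 13 had 0 reads in all 6 cultures and the rest had at most 48 reads in all.

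**Figure D1:**
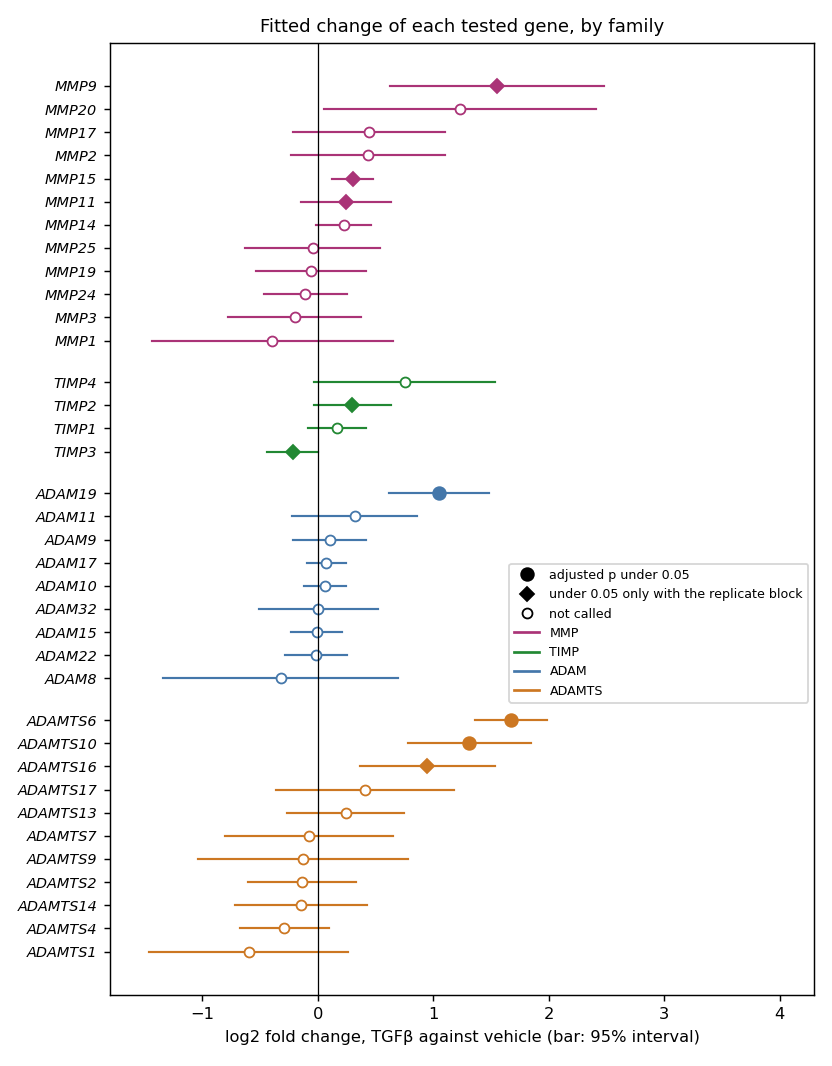
Log2 fold change of the 36 tested members, TGFβ against vehicle, with the 95% interval of the edgeR fit, by family. Filled circles passed the adjusted p threshold, filled diamonds passed it only with the replicate block, and open circles did not pass; ADAMTS6, ADAMTS10 and ADAM19 are the filled circles, at 1.67, 1.31 and 1.05.

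Levels were compared between genes per length, as the deposited RPKM (reads scaled by coding length and library size). TIMP3 led with 33.4 ± 2.67 RPKM (SD, n = 3) in vehicle cultures, followed by ADAM9 at 23.0 ± 4.08, MMP15 at 19.5 ± 0.869, ADAM10 at 15.4 ± 1.14, TIMP1 at 15.0 ± 1.29, TIMP2 at 10.9 ± 1.62 and ADAM17 at 7.99 ± 0.637. The spreads of ADAM9 and MMP15, and those of ADAM10 and TIMP1, overlapped. A mean over all cultures of at least 1 RPKM was reached by 11 members, of which 3 were MMP, 3 TIMP and 5 ADAM genes, and by 0 ADAMTS genes. Summed over each family, the TIMP genes gave 54.9 to 62.2 RPKM and the ADAM genes 49.0 to 65.5 over the 6 cultures, with overlapping ranges. MMP genes summed to 26.0 to 34.4 RPKM and ADAMTS genes to 1.30 to 2.77.

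**Figure D2:**
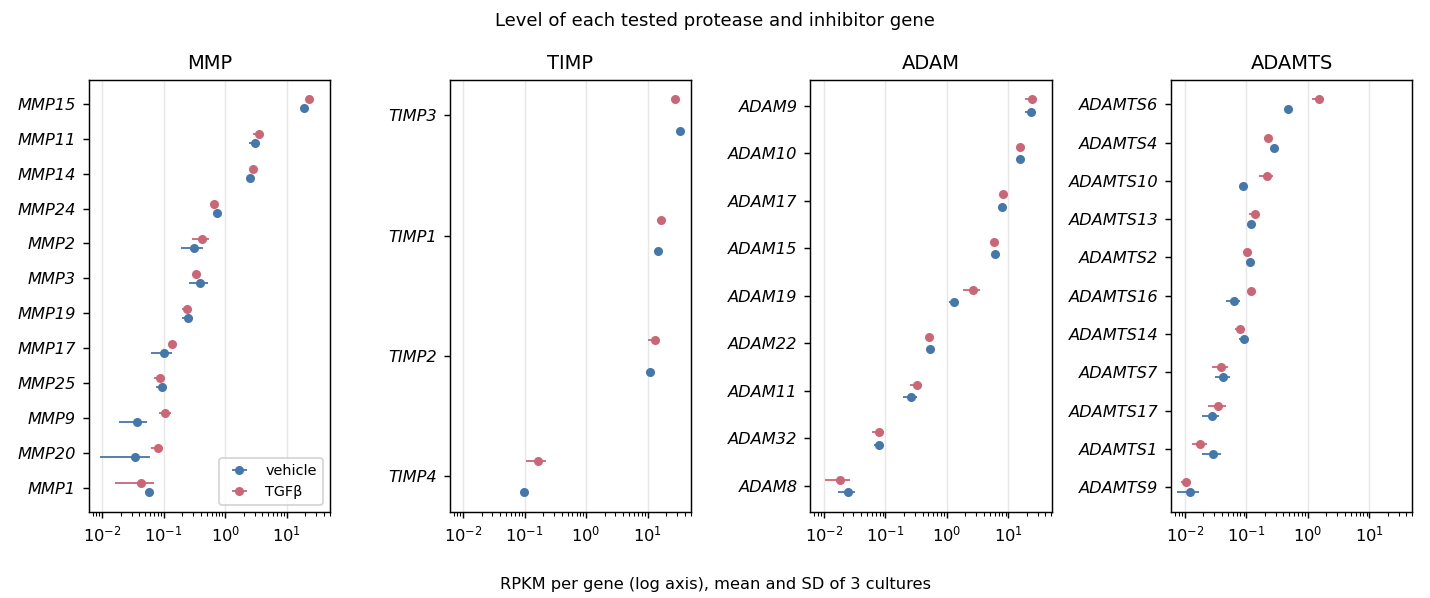
RPKM of each tested member on a log axis, by family, as mean and SD of 3 vehicle (blue) and 3 TGFβ (red) cultures. TIMP3, ADAM9 and MMP15 had the highest levels, and every ADAMTS gene but ADAMTS6 stayed under 1 RPKM in both groups.

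ADAMTS6 and ADAMTS10, the pair of close relatives known for acting on fibrillin microfibrils, rose, and they were the called ADAMTS genes among 11 tested. ADAMTS6 (ENSG00000049192, chr5:64444563-64777747 on hg19) was at 5.03, 4.84 and 5.03 CPM (counts scaled to library size by TMM) in vehicle cultures 1, 2 and 3, and at 16.2, 18.3 and 12.9 CPM in TGFβ cultures 1, 2 and 3. The groups were well apart, and the vehicle cultures lay close together. The mean went from 4.97 ± 0.111 to 15.8 ± 2.73 CPM, a log2 fold change of 1.67 ± 0.14 (SE) with an adjusted p of 0.000155, or 3.18-fold. It passed the test under every alternative run and without any 1 culture, at log2 fold changes of 1.54 to 1.79. Within numbers 1, 2 and 3 the log2 ratios of CPM were 1.69, 1.92 and 1.36. The 3 other genes of the table inside ADAMTS6 held 15, 10 and 1 reads in all, against 5139 on ADAMTS6.

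ADAMTS10 (ENSG00000142303, chr19:8645126-8675620 on hg19), a gene mutated in Weill-Marchesani syndrome, was lower in level. It was at 0.578, 0.652 and 0.617 CPM in vehicle cultures and at 1.77, 1.69 and 1.11 CPM in TGFβ cultures 1, 2 and 3, from 38 to 172 reads per culture. The groups did not overlap, and TGFβ culture 3 was the lowest of its group. Its log2 fold change was 1.31 ± 0.24 (SE), or 2.48-fold, with an adjusted p of 0.0123. The call was lost without vehicle culture 1, 2 or 3 or without TGFβ culture 2, at adjusted p of 0.0535, 0.0545, 0.0631 and 0.0608 and log2 fold changes of 1.22 to 1.35. These fits had no block. With all cultures and the replicate block the adjusted p was 0.00161.

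ADAMTS16, a protease known to cut fibronectin, was at 0.430, 0.338 and 0.585 CPM in vehicle cultures and at 0.949, 0.771 and 0.864 CPM in TGFβ cultures. The groups did not overlap, as in 2370 of all tested genes in this direction (10.4%) and in 9 of the tested members. The opposite order without overlap was seen in 8.23% of all tested genes and 0 members. Its log2 fold change of 0.95 ± 0.26 (SE) had an adjusted p of 0.0862, and of 0.0202 with the replicate block. ADAMTS16 overlapped 1 other gene of the table, which had 0 reads.

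The other tested ADAMTS genes did not pass either test. ADAMTS4, an aggrecanase, was at 3.21, 3.80 and 3.61 CPM in vehicle cultures and at 2.35, 3.04 and 3.29 CPM in TGFβ cultures, so the groups overlapped, at a log2 fold change of -0.29 ± 0.17 (SE) and an adjusted p of 0.56. All 3 tested proteoglycanases of 7, namely ADAMTS1, ADAMTS4 and ADAMTS9, had negative log2 fold changes, from -0.60 to -0.13, and 0 passed. The 95% interval of each included 0. Of the 3 procollagen N-proteinases, which trim fibrillar procollagens, ADAMTS2 and ADAMTS14 were tested, at -0.14 and -0.15. ADAMTS13, which cuts von Willebrand factor and is made in the liver, was at 0.24 ± 0.23 (SE). The family's median log2 fold change was -0.08, with 5 genes positive and 6 negative. ADAMTS5, ADAMTS8 and ADAMTS19 had 0 reads, and ADAMTS3 had 8 reads over the vehicle and 0 over the TGFβ cultures.

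Per length, the ADAMTS family went from 1.30, 1.39 and 1.39 RPKM in vehicle cultures to 2.58, 2.77 and 2.08 RPKM in TGFβ cultures. Both ranges stood apart. An exact two-sided permutation test of 3 against 3 cannot give a p below 0.1. ADAMTS6 made up a mean of 35.3% of the sum in vehicle cultures and 59.9% in TGFβ cultures.

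Among the ADAM genes, ADAM19 rose and the others tested did not pass. ADAM19 (ENSG00000135074, chr5:156822542-157002783 on hg19), a protease known for shedding neuregulin, was at 12.5, 14.3 and 10.0 CPM in vehicle cultures 1, 2 and 3 and at 21.0, 33.8 and 21.4 CPM in TGFβ cultures 1, 2 and 3. The groups did not overlap, and culture 2 was the highest in both. The mean went from 12.3 ± 2.15 to 25.4 ± 7.24 CPM, a log2 fold change of 1.05 ± 0.19 (SE), or 2.07-fold, with an adjusted p of 0.0135. Within numbers 1, 2 and 3 the log2 ratios were 0.75, 1.24 and 1.10. The call was lost without vehicle culture 1 (adjusted p 0.0555, log2 fold change 1.05), without vehicle culture 3 (0.0852 and 0.92), and with no filter on low counts (0.121). These fits had no block. With all cultures and the replicate block the adjusted p was 3.88e-05. Its last 65 bases overlap CYFIP2, which held 30416 reads at a log2 fold change of 0.09.

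The 3 ADAMs with the highest levels were close to level between the groups. ADAM9 was at 183, 224 and 168 CPM in vehicle cultures and at 199, 246 and 172 CPM in TGFβ cultures, a log2 fold change of 0.10 with a 95% interval of -0.21 to 0.42. ADAM10, the protease that cuts Notch receptors, was at 152, 169 and 160 CPM against 175, 175 and 151 CPM, a log2 fold change of 0.06 with an interval of -0.12 to 0.24. ADAM17, which releases tumor necrosis factor and ligands of the epidermal growth factor receptor, was at 52.0, 56.3 and 50.5 CPM against 54.9, 58.9 and 53.2 CPM, a log2 fold change of 0.07 with an interval of -0.10 to 0.24. In each of them the groups overlapped, and the intervals leave out a 1.5-fold change in either direction. ADAM17 shares 8058 bases with IAH1, which held 14352 reads at a log2 fold change of 0.10.

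Of 12 ADAMs with a catalytic motif 6 were tested, and 1 of them, ADAM19, was called. Of 10 without one, pseudogenes included, 3 were tested, namely ADAM11, ADAM22 and ADAM32, at log2 fold changes of 0.32, -0.02 and 0.01, and 0 passed. The family's median log2 fold change was 0.06. ADAM12, an ADAM of mesenchymal cells, had 0 reads in every culture, as did ADAM2, ADAM6, ADAM7 and ADAM18. ADAM28 had 10 reads over the vehicle and 1 over the TGFβ cultures, and ADAM23, with 21 and 27, had the most reads among those not tested.

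**Figure D3:**
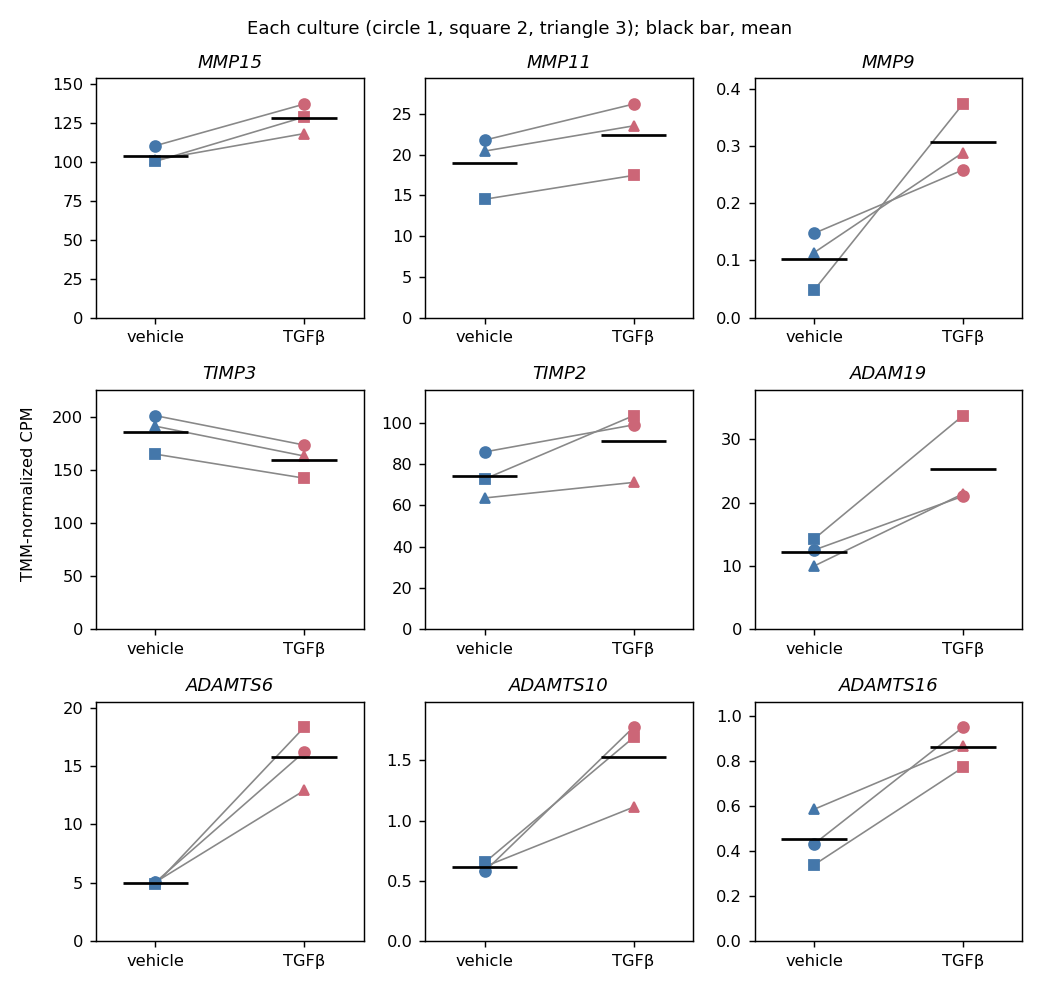
TMM-normalized CPM of the 9 members that passed the test with or without the replicate block, in each culture; lines join cultures with the same number and black bars are means. ADAMTS6, ADAMTS10, ADAMTS16, ADAM19, MMP9 and MMP15 did not overlap between the groups. MMP11, TIMP2 and TIMP3, shown because they passed with the block, overlapped and moved the same way within each number.

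No MMP passed the test among 12 tested, and 3 were higher at an unadjusted p under 0.05, namely MMP9, MMP15 and MMP20, where 8.69% of all tested genes were. With the replicate block MMP15, MMP9 and MMP11 passed, all higher. DESeq2 called 1 MMP higher, limma-voom 0.

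MMP15 (MT2-MMP), a membrane-anchored MMP, made up between 70.6% and 74.5% of the family's summed RPKM in every culture. It was at 110, 100 and 101 CPM in vehicle cultures 1, 2 and 3 and at 137, 129 and 118 CPM in TGFβ cultures, above every vehicle culture. The log2 fold change was 0.30 ± 0.08 (SE), or 1.23-fold, with an adjusted p of 0.0761, of 0.00225 with the replicate block, of 0.0323 in DESeq2 and of 0.0456 without TGFβ culture 3. MMP14 (MT1-MMP), which activates pro-MMP2 on the cell surface, was at 14.6, 12.1 and 13.9 CPM against 15.3, 17.2 and 14.9 CPM. These values did not overlap either, but the log2 fold change of 0.22 ± 0.11 (SE) had an adjusted p of 0.414. Of the 6 membrane-type MMPs 5 were tested, with log2 fold changes between -0.11 and 0.44.

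MMP11 (stromelysin-3), which is activated inside the cell by furin, was at 21.8, 14.5 and 20.4 CPM in vehicle cultures and at 26.2, 17.5 and 23.5 CPM in TGFβ cultures. The groups overlapped, culture 2 was the lowest in both, and the log2 ratios within numbers 1, 2 and 3 were 0.27, 0.26 and 0.20. Its log2 fold change of 0.24 ± 0.18 (SE) had an adjusted p of 0.666 without and 0.0286 with the replicate block. MMP11 shares 1679 bases with the row AP000349.1, which held 4188 reads against 10049 on MMP11. The row AP000349.1 was at a log2 fold change of 0.23.

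MMP9 (gelatinase B) had the largest fitted change of the family at low read counts. It had 13, 4 and 7 reads in vehicle cultures and 25, 30 and 21 reads in TGFβ cultures 1, 2 and 3, or 0.147, 0.0483 and 0.114 against 0.258, 0.373 and 0.288 CPM. There was no overlap, and number 2 held both the lowest and the highest culture. Its log2 fold change of 1.55 ± 0.41 (SE) had an adjusted p of 0.077, of 0.0388 with the replicate block and of 0.0387 with no filter on low counts. MMP9 shares 3060 bases with RP11-465L10.10, a long noncoding RNA on the opposite strand, which held 1045 reads at a log2 fold change of 0.14, and whether strand was used in counting is not given. MMP2 (gelatinase A), which MMP14 activates, was at 2.74, 1.36 and 1.51 CPM against 3.28, 2.45 and 1.85 CPM, a log2 fold change of 0.43 ± 0.30 (SE) with an adjusted p of 0.644.

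The secreted collagenases, stromelysins and matrilysins that lie together on chromosome 11 had few reads in these cultures. Over 435 kb (chr11:102391239-102826463 on hg19) 9 MMP genes held 638 reads in all 6 cultures together, and MMP12 and MMP27 held 0. MMP3 (stromelysin-1) accounted for most of them, with 74, 109 and 46 reads in vehicle cultures and 77, 75 and 59 in TGFβ cultures. MMP20 (enamelysin), a protease of tooth enamel, had 16, 2 and 7 reads against 20, 25 and 18, a log2 fold change of 1.23 ± 0.53 (SE) with an adjusted p of 0.331. MMP1, the interstitial collagenase, had 14, 10 and 8 reads against 8, 14 and 4, and the groups overlapped. The promoters of MMP7 and MMP10 each held an AP-1 site that began 67 bases before the start, and these genes had 29 and 14 reads in all.

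**Figure D4:**
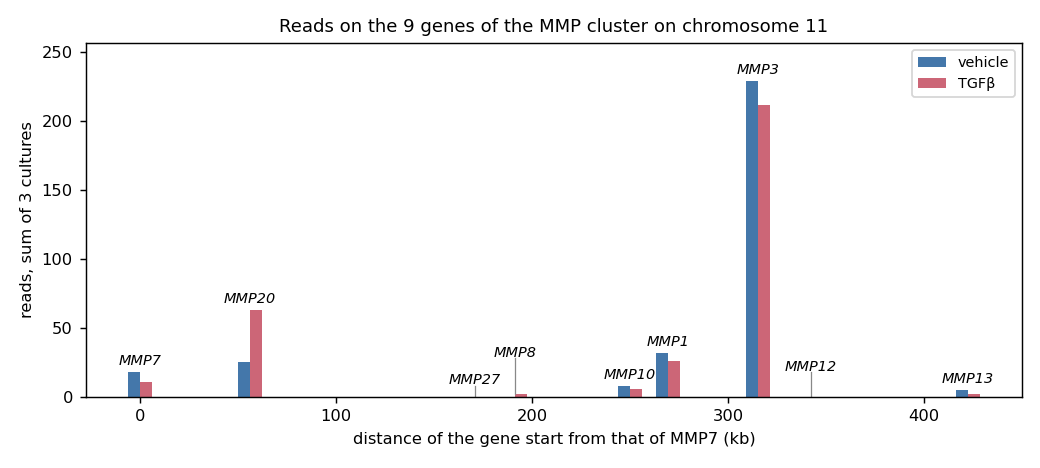
Reads summed over 3 cultures per group on each of the 9 genes of the MMP cluster, by distance of the gene start from that of MMP7 in kb; thin grey lines only tie labels to positions. MMP3 had the most reads, MMP20 was higher in the TGFβ cultures at 63 against 25 reads, and MMP12 and MMP27 had 0.

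None of the 4 TIMP genes passed the test without the block, where 0 had an unadjusted p under 0.05. With the replicate block TIMP2 was higher and TIMP3 lower. DESeq2 and limma-voom, both run without a block, called 0. TIMP3, which is held in the matrix and also blocks ADAM17 and aggrecanases, was at 201, 165 and 191 CPM in vehicle cultures 1, 2 and 3 and at 174, 142 and 163 CPM in TGFβ cultures. The groups overlapped because culture 2 was the lowest in both, while the log2 ratios within numbers were -0.21, -0.21 and -0.23. Its log2 fold change was -0.22 ± 0.10 (SE), with an adjusted p of 0.378 and, with the replicate block, of 0.00987. TIMP3 holds 415 bases that are also the row Z98256.1, with 17485 reads against 83400 on TIMP3 and a log2 fold change of -0.24.

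TIMP2, which with MMP14 takes part in the activation of pro-MMP2, was at 85.8, 72.7 and 63.6 CPM in vehicle cultures and at 98.9, 103 and 71.1 CPM in TGFβ cultures. The groups overlapped, with each TGFβ culture above the vehicle culture of its number. The log2 fold change of 0.30 ± 0.15 (SE) had an adjusted p of 0.443 without and 0.0177 with the replicate block. TIMP2 overlaps DDC8 and RP11-323N12.5, which held 5042 and 6214 reads against 40605 on TIMP2. DDC8 and RP11-323N12.5 were at log2 fold changes of 0.25 and 0.34.

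TIMP1, the secreted inhibitor often raised in fibrotic liver, was at 30.6, 30.9 and 36.1 CPM in vehicle cultures and at 31.1, 38.1 and 40.3 CPM in TGFβ cultures, a log2 fold change of 0.16 with a 95% interval of -0.08 to 0.41 and overlapping groups. TIMP4 had 17, 17 and 12 reads in vehicle cultures and 25, 21 and 36 in TGFβ cultures. Its groups did not overlap, at a log2 fold change of 0.75 ± 0.35 (SE), an adjusted p of 0.399 and, with the replicate block, of 0.239. The summed RPKM of the 4 TIMP genes was 56.2 to 62.2 in vehicle and 54.9 to 59.1 in TGFβ cultures, and the mean share of TIMP3 in it was 56.1% in vehicle and 48.5% in TGFβ cultures.

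Genes that activate, inhibit or accompany the proteases were taken from a list of 50 symbols, of which 49 were found in the table and 38 were tested. Of these, 5 were higher and 0 lower, against 3.11% and 1.01% of all tested genes. With the replicate block 11 were higher, against 8.08% of all tested genes. FURIN, the convertase that cuts the precursors of MMP11, of membrane-type MMPs and of many ADAMs and ADAMTSs, was at 225, 180 and 180 CPM in vehicle cultures and at 418, 476 and 366 CPM in TGFβ cultures. All TGFβ cultures were above all vehicle cultures, with a log2 fold change of 1.10 ± 0.12 (SE) and an adjusted p of 0.000692. The other 3 convertases tested, PCSK5, PCSK6 and PCSK7, were at -0.40, 0.14 and 0.27 and did not pass.

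Among the partners of ADAM17, FRMD8 and RHBDF1 rose. FRMD8, which keeps the complex of ADAM17 and iRhom on the cell surface, was at 30.3, 27.9 and 30.2 CPM in vehicle cultures and at 57.6, 56.3 and 56.0 CPM in TGFβ cultures, a log2 fold change of 0.94 ± 0.07 (SE) with an adjusted p of 9.6e-05. RHBDF1 (iRhom1), which carries ADAM17 through its maturation, was at 9.56, 8.11 and 7.50 CPM against 14.2, 14.5 and 10.8 CPM, a log2 fold change of 0.65 ± 0.14 (SE) with an adjusted p of 0.0337. The call for RHBDF1 was lost without vehicle culture 2 or 3 or TGFβ culture 1 or 2, at adjusted p of 0.138, 0.165, 0.115 and 0.147. These fits had no block. With all cultures and the replicate block the adjusted p of RHBDF1 was 0.000614. RHBDF2 (iRhom2) was at 0.47 ± 0.11 (SE), with an adjusted p of 0.0536 and, with the replicate block, of 0.000549. So 2 of 3 partners of ADAM17 passed, and 3 of 3 with the block, all higher. Of 6 tetraspanins that accompany ADAM10, 0 passed, and TSPAN14 was higher with the block. Among all tested genes 3.11% were called higher, and 8.08% with the block. Both lists are short, and the difference between them was not tested.

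ADAMTSL2, a relative of the ADAMTS proteins that lacks the protease part and binds fibrillin and latent TGFβ binding proteins, was at 20.8, 13.6 and 17.2 CPM in vehicle cultures and at 30.7, 26.3 and 25.0 CPM in TGFβ cultures. The groups did not overlap, at a log2 fold change of 0.67 ± 0.15 (SE) and an adjusted p of 0.0337. The call was lost without vehicle culture 2 or 3 or TGFβ culture 1 or 2, at adjusted p of 0.0905, 0.143, 0.104 and 0.0969. These fits had no block. With all cultures and the replicate block the adjusted p was 0.000314. ADAMTSL2 was the called gene of 6 tested ADAMTS-like genes. Of 6 tested inhibitors outside the TIMP family, 0 passed, with A2M, the plasma inhibitor of proteases made in the liver, at -0.09. PLAUR, SERPINE2, BMP1 and ADAMTSL4 passed with the replicate block only, at log2 fold changes between 0.26 and 0.51.

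**Figure D5:**
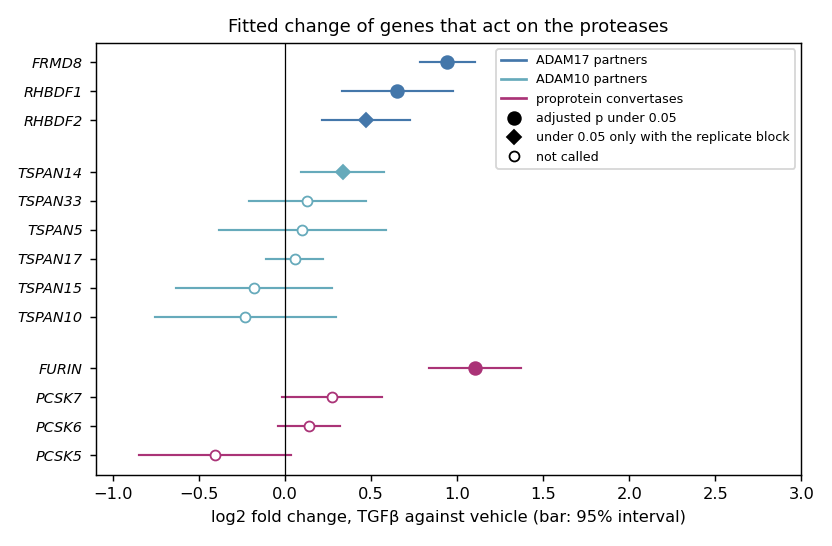
Log2 fold change, TGFβ against vehicle, with the 95% interval of the edgeR fit, of tested partners of ADAM17, partners of ADAM10 and proprotein convertases. FURIN, FRMD8 and RHBDF1 (filled circles) passed the adjusted p threshold, and filled diamonds passed it only with the replicate block.

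The cultures held 60815385 to 100099136 counted reads, so 3 reads, taken as the lowest count to be read, corresponded to 0.0300 to 0.0493 CPM. Hepatocyte markers were high in every culture, with 10 of 10 tested, a summed level of 37381 to 41854 CPM in vehicle and 35928 to 40707 CPM in TGFβ cultures, and 0 called. With the replicate block 2 of them, TTR and FGB, were lower. Of 10 fibroblast and stellate cell markers 3 were tested and 0 called, with a summed level of 52.5 to 57.4 CPM in vehicle and 62.8 to 71.4 CPM in TGFβ cultures, and with POSTN at 0 reads. With the replicate block COL1A1 and PDGFRB were higher. Their means went from 7.54 to 11.2 CPM and from 6.77 to 15.8 CPM. The log2 fold changes were 0.57 and 1.22, at adjusted p of 0.193 and 0.0582 without the block. ACTA2, which held most of the sum, was at a mean of 39.7 CPM in vehicle and 39.2 CPM in TGFβ cultures. THY1 had 9 reads over the vehicle and 0 over the TGFβ cultures. Of 8 macrophage and leukocyte markers 3 were tested and 0 called, with a summed level of 1136 to 1459 CPM in vehicle and 987 to 1087 CPM in TGFβ cultures, nearly all of it LYZ, which was lower with the replicate block, and with PTPRC at 1 read in all. Endothelial markers summed to at most 0.306 CPM with 0 of 5 tested. The part of these differences in the values of the proteases was not tested, and in RNA from whole cultures fewer cells of a type and less RNA per cell cannot be told apart.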

How the data were processed

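RNA from HepG2 cells treated with TGFβ or vehicle was sequenced by the authors as paired 51-base reads, aligned to hg19 with TopHat2 2.0.6 and counted per gene in MAPRseq v2.0.0, with HTSeq named in the submitters' processing notes. The deposited table holds raw counts per gene and, beside them, the RPKM that the authors derived from coding length and library size. The annotation release, the strand setting and the treatment of overlapping genes are not stated by any source used here; 25 of the 36 tested members overlapped another row with reads.

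Counts were tested with edgeR 4.0.16 (limma 3.58.1, R 4.3.3): TMM normalization, filterByExpr, the robust quasi-likelihood test, with p-values adjusted by Benjamini-Hochberg over 22747 genes. RPKM values were used untested and without TMM scaling, for levels between genes and for sums over each family. The library size that they imply was 1.19 (TGFβ culture 1) to 1.28 (TGFβ culture 3) times the counted reads. Family sums of different cultures carry this difference. The steps were tested on simulated counts that held no effect shared by cultures of the same number, so paired cultures were not covered. Replicates differed by more than counting noise. Named in full were every TIMP, every member with an adjusted p under 0.05 with or without the replicate block, and the 3 highest by RPKM in each other family; other genes were named after their values were seen. Results for some genes are left out here. Members, lists and tests were chosen with earlier results of these data known.

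Deviations of cultures with the same number correlated across genes (r = 0.366, 0.227 and 0.316 for numbers 1, 2 and 3, at most 0.0101 otherwise), so the numbers pair the cultures. The reported test has no block and leaves this pairing out. Its standard errors and intervals, and the fits that leave out a culture, are those of unpaired groups. For each member whose call the block changed, the blocked adjusted p is given. Other listed genes whose call it changed are named, most of them without that value. The labels place numbers 1 and 2 of both groups on lanes 1 and 3, and number 3 on lanes 4 (vehicle) and 5 (TGFβ). Alternatives were limma-voom, DESeq2 1.42.0 without independent filtering, a minimum of 10 counts per library, no filter, scaling by total count or by DESeq2's size factors, the block, and leaving out each culture. Promoters came from RefSeq on GRCh38.p14, another build than that of the gene positions; 6 of the 9 members called with or without the block had an entry (the other members: MMP9, ADAMTS16 and TIMP2).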

Additional observations from a re-analysis of the deposited data

How the results depend on the processing

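With the replicate number as a block, higher calls went from 707 to 1837 and lower calls from 230 to 853 over all genes. Among members they went from 0 to 3 higher for MMP, from 0 to 1 higher and from 0 to 1 lower for TIMP, and for the list of regulators and relatives from 5 to 11 higher; the block ended none of the calls named in the text. With no filter on low counts there were 366 lower calls over all genes, 1 higher MMP (MMP9) and 0 higher ADAM genes, the last because ADAM19 had an adjusted p of 0.121. DESeq2 without independent filtering gave 388 lower calls over all genes and 1 higher MMP (MMP15). Leaving out each culture in turn gave 394 to 778 higher calls over all genes (394 without vehicle culture 3, 414 without vehicle culture 2, 439 without TGFβ culture 2) and 91 to 220 lower calls (91 without vehicle culture 3, 104 without vehicle culture 2, 122 without TGFβ culture 2, 144 without TGFβ culture 1). It gave 0 to 1 higher MMP, 0 to 1 higher ADAM, 1 to 2 higher ADAMTS genes, and 3 to 7 higher genes of the list, with 3 without vehicle culture 2 or 3 or TGFβ culture 1 or 2. The log2 fold change of ADAM9 ranged from -0.059 (reversed, without TGFβ culture 2, adjusted p 0.958) to 0.226. The causes were not tested. Of the log2 fold changes of named genes over the alternatives with all 6 cultures, 137 kept their direction and side of the threshold, 8 gained a call and 1 lost it. Among tested members the intervals of MMP1, MMP9, MMP20, TIMP4, ADAM8, ADAMTS1, ADAMTS9 and ADAMTS17, all at low counts, span more than 1.5 on the log2 scale.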
